A study of Homo sapiens with 12 samples.

Results

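MAP kinase phosphatases and the Sprouty and SPRED proteins are the brakes of the growth factor and cytokine signal that runs through RAS, RAF, MEK and ERK. The phosphatases (dual-specificity phosphatases, DUSP) take the activating phosphates off ERK, p38 or JNK, whereas Sprouty and SPRED proteins act higher up and hold back RAS or RAF. Many of these genes are switched on by the pathway they inhibit, and DUSP1 is also a classical glucocorticoid-induced gene. The 10 genes described here were DUSP1, DUSP2, DUSP4, DUSP5, DUSP6, DUSP10, SPRED1, SPRED2, SPRY1 and SPRY2. All regions in 8 lists of ChIP-seq peaks were taken whose summit lay in the span of a listed gene or within 50 kb of it. They numbered 35 regions at 19 separate sites, and were found at 6 of the 10 genes. The 10 genes were drawn from 19866 protein-coding genes, and the 8 lists held 11908 regions in all.

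The cells were SUPT-1, an established line of human T-lymphoblastic leukaemia origin, kept under puromycin to hold the doxycycline-inducible cells, and doxycycline had induced overexpression of a STAT5B form in every group. The form was either N642H, an activating mutant of STAT5B (N642H line), or wild type (WT line). Chromatin was precipitated with antibodies to NR3C1, the glucocorticoid receptor, or to STAT5B, from cells given prednisolone, a synthetic glucocorticoid, at 250 µg per ml for 16 h, or from untreated cells. There was 1 library for each antibody, line and treatment, so no difference between libraries could be set against a spread between cultures, and no test was run. The labels do not give the amount of either STAT5B form, nor how much endogenous STAT5B the cells held.

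The 6 lists with more than 50 regions held between 446 and 4542 regions. The untreated NR3C1 lists held 2 regions in each line. The fold (ChIP signal at the summit over local background) and the −log10 q of each region are the authors' own values. From the fold and the −log10 p, the number of ChIP fragments lying over each summit and the local background in the same unit were recovered, and a single solution was found for 99.2 to 100% of regions in these 6 lists. The fewest fragments over any called summit were between 6 and 9 in each list. The genome-wide background was lowest in the STAT5B library of prednisolone-treated N642H cells, with 0.310 fragments, and highest in that of untreated N642H cells, with 0.977. It lay between 0.618 and 0.656 in the other 4. Fragment intervals below are exact Poisson 95% intervals and cover counting error only.

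Of the 10 genes, 8 were matched to RefSeq promoter windows, which run from 250 bases before to 50 bases after a start site on GRCh38.p14. These 8 were DUSP1, DUSP2, DUSP6, DUSP10, SPRED1, SPRED2, SPRY1 and SPRY2, with 13 windows among them. DUSP4 and DUSP5 were described by their spans. In untreated N642H cells a STAT5B region covered a promoter window of 4 of the 8 genes, and the 4 windows are shown 5′ to 3′ with the bases inside that region in capitals. The DUSP1 window is chr5:172771146-172771445, the DUSP2 window chr2:96145391-96145690, the DUSP6 window chr12:89352452-89352751 and the SPRED2 window chr2:65432550-65432849, all on the minus strand.
DUSP1: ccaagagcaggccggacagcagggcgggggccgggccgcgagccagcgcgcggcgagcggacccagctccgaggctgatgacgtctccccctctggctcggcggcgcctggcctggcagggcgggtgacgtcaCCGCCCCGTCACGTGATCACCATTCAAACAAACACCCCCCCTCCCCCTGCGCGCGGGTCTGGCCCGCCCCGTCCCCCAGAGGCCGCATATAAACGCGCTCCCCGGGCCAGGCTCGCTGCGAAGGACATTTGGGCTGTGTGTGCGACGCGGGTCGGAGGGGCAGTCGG
DUSP2: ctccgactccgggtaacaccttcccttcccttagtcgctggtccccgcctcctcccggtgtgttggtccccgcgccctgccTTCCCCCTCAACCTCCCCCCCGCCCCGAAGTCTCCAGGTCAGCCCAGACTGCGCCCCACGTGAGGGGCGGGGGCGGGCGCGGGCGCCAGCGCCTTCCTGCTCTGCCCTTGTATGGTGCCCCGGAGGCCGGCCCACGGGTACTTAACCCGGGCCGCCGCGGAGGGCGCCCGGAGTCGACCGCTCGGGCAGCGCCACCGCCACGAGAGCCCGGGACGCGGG
DUSP6: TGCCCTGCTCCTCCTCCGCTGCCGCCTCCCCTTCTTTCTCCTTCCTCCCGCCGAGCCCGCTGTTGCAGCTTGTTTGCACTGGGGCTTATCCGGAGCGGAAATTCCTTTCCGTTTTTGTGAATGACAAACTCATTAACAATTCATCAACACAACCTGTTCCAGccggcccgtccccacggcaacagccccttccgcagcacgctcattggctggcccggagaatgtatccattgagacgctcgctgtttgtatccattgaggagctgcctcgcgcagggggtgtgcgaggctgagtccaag
SPRED2: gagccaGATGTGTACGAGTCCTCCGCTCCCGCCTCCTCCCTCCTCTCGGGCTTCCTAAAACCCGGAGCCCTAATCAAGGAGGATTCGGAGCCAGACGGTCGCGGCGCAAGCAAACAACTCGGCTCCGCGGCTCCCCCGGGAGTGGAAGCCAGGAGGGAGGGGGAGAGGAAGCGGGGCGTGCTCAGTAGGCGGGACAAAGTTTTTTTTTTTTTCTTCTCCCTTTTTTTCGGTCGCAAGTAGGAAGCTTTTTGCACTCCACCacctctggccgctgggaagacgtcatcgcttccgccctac
The GC content of these windows was 73.3% (DUSP1), 75.0% (DUSP2), 58.3% (DUSP6) and 60.0% (SPRED2). None of the 4 held the STAT5 palindrome TTCNNNGAA, searched on both strands, which 7.66% of all 35116 promoter windows held. Among the 2870 windows covered by a STAT5B region in untreated N642H cells the share was 7.60%. The only member window with a match was the second window of SPRY1, a gene with no region in any list. It is shown because it sets sequence beside binding, with the match in capitals (chr4:123398136-123398435, plus strand).
SPRY1: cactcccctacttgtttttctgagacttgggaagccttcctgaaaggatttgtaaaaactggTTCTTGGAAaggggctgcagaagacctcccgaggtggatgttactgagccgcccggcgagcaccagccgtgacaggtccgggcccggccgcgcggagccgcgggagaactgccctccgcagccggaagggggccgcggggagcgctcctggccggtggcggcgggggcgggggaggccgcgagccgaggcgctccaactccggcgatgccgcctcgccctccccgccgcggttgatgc
The strongest NR3C1 regions of the set lay outside the windows of the 10 genes. The DUSP1 region reached into the window of LOC105377730, a long non-coding RNA gene on the opposite strand (chr5:172771961-172772260, plus strand), and the bases inside the N642H-line region are in capitals.
LOC105377730: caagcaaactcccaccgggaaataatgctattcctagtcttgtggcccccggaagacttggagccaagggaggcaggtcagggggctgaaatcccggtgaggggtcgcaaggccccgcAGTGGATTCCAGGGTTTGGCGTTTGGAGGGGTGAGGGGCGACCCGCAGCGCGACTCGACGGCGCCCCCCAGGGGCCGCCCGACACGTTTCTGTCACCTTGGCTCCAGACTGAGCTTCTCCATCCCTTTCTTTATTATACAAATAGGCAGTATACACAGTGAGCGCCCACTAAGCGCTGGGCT
These bases cover the edge of the region and not its summit. Neither this stretch nor any window of the 8 genes held the full glucocorticoid receptor palindrome, which 0.390% of all windows held. This palindrome is the core ACANNNTGT preceded by G and any base and followed by any base and C. The core alone, searched on both strands and held by 5.37% of windows, occurred in the DUSP6 window from base -102 relative to the start site, inside the STAT5B region of untreated N642H cells, and in 2 SPRY2 windows that no region covered. The cAMP response element TGACGTCA, held by 1.85% of windows, lay from base -125 relative to the DUSP1 start site and ended at the base next to the STAT5B region there. A match describes the letters only, and the DNA of the other regions was not analysed here.

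With prednisolone NR3C1 regions were called at DUSP1 and DUSP2 in both lines and at DUSP6, DUSP10 and SPRED2 in the N642H line. In the N642H line with prednisolone 5 of the 10 genes had an NR3C1 region (DUSP1, DUSP2, DUSP6, DUSP10 and SPRED2; 95% exact binomial interval 18.7 to 81.3%), against 16.8% of all protein-coding genes (16.1% of the 15906 genes whose spans lie in the size range of the 10). In the WT line with prednisolone 2 of 10 had such a region (DUSP1 and DUSP2; 2.52 to 55.6%), against 6.49% of all genes (5.93% in that size range). Both lines at once were linked at 2 of the 10 genes, against 5.94% of all genes, the N642H line alone at 3, against 10.9%, and the WT line alone at 0, against 0.544%. Neither untreated list had a region at any of the 10 genes, where 0.0453% of all genes were linked in each line (0.0566% in the size range), and 0 of 10 allows a share of up to 30.0% (3 counts of the total). With 2 regions in each untreated list, this count of 0 is not a result about these genes. Of the 8 NR3C1 regions at these genes in N642H cells none overlapped an untreated region (0.0693% of the whole list did), and the same held for the 3 regions in WT cells (0.201% of that list).

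**Figure D1:**
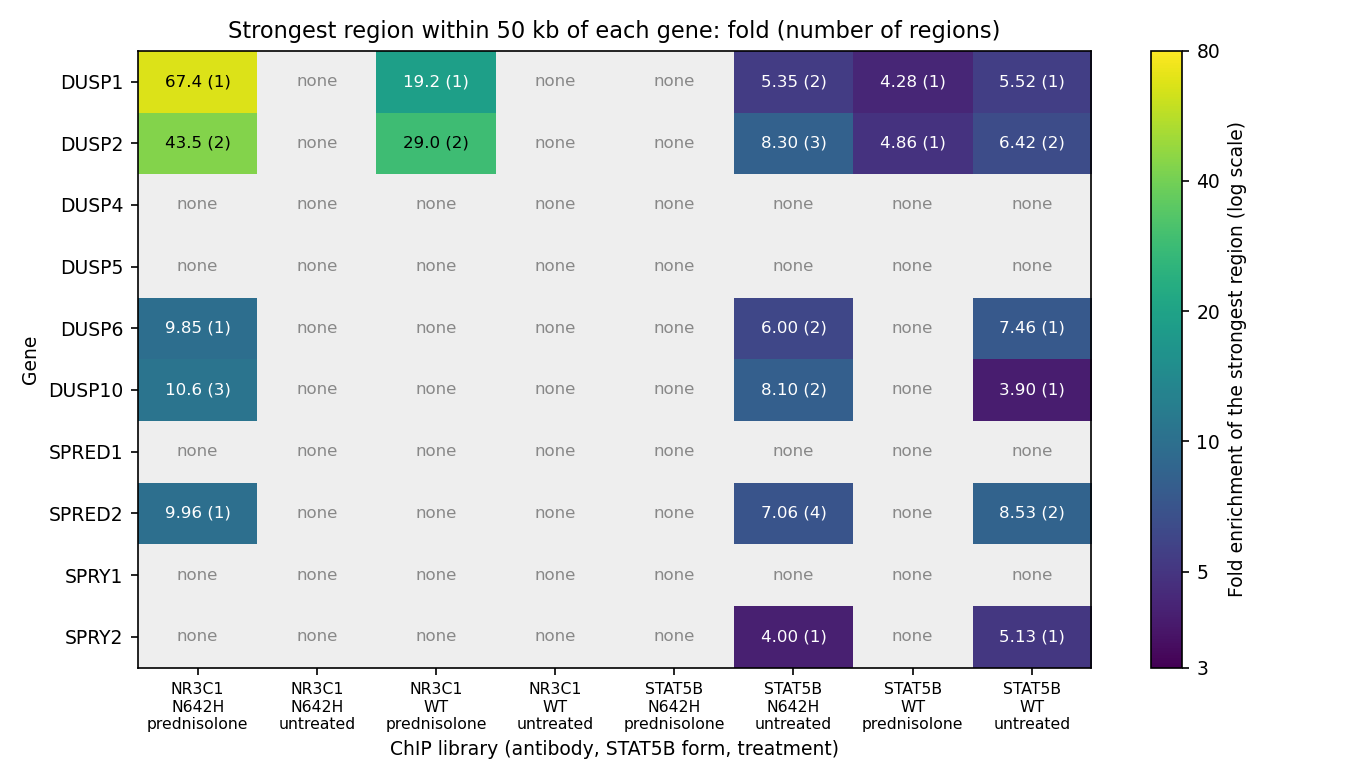
Fold of the strongest region (by −log10 q) within 50 kb of each gene in each library, with the number of regions in brackets; grey cells have no region. The DUSP1 and DUSP2 cells of the prednisolone NR3C1 libraries, with folds from 19.2 to 67.4, are the only ones above 11.

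DUSP1 encodes a nuclear phosphatase that acts on p38, JNK and ERK (gene ID 1843, chromosome 5, 172768096 to 172771195, minus strand). With prednisolone it had 1 NR3C1 region per line, upstream of the gene. In the N642H line the region spanned 172772079 to 172772827, with its summit 1342 bp upstream of the start site, and in the WT line it spanned 172772174 to 172772729, with its summit at 1355 bp. The nearest start site of any gene was that of LOC105377730, 326 bp from the N642H-line summit and 339 bp from the WT-line summit, and DUSP1 was the nearest protein-coding gene. The fold was 67.4 in the N642H line (−log10 q 279, 28th of 2888 regions) and 19.2 in the WT line (−log10 q 86.8, 46th of 995). The fragments over the summit differed less, with 175 in the N642H line (150 to 203) and 106 in the WT line (86.8 to 128). The local background was 1.61 fragments in the N642H line and 4.47 in the WT line, so the ratio of folds was 3.52 while the ratio of fragments was 1.65. Over the 882 pairs of NR3C1 regions called in both lines and solved in both, the N642H over WT ratio had a median of 1.43 for folds and 1.41 for fragments. The DUSP1 fold ratio was above 97.5% of these pairs and its fragment ratio above 72.2%.

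DUSP2 encodes a nuclear phosphatase known from activated lymphocytes (gene ID 1844, chromosome 2, 96143169 to 96145440, minus strand). It carried a distal and a proximal NR3C1 region in each line with prednisolone. The distal region, at 96163617 to 96164101 in the N642H line and 96163686 to 96164088 in the WT line, had its summit 18448 and 18426 bp upstream of the start site. Its fold was 43.5 in the N642H line (−log10 q 163, 69th of 2888) and 29.0 in the WT line (−log10 q 99.5, 40th of 995). It held 118 fragments in the N642H line (97.7 to 141) and 96 in the WT line (77.8 to 117), intervals that overlap. The fragment ratio of 1.23 was above 32.9% of the pairs called in both lines. The nearest other protein-coding gene was STARD7, 20971 bp from the N642H-line summit, so DUSP2 was the nearest such gene. The proximal region was weak, with fold 6.41 and 17 fragments in the N642H line (9.90 to 27.2) and fold 6.55 and 11 fragments in the WT line (5.49 to 19.7). Its summits lay 1038 and 1037 bp upstream of the start site, 1 bp apart.

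**Figure D2:**
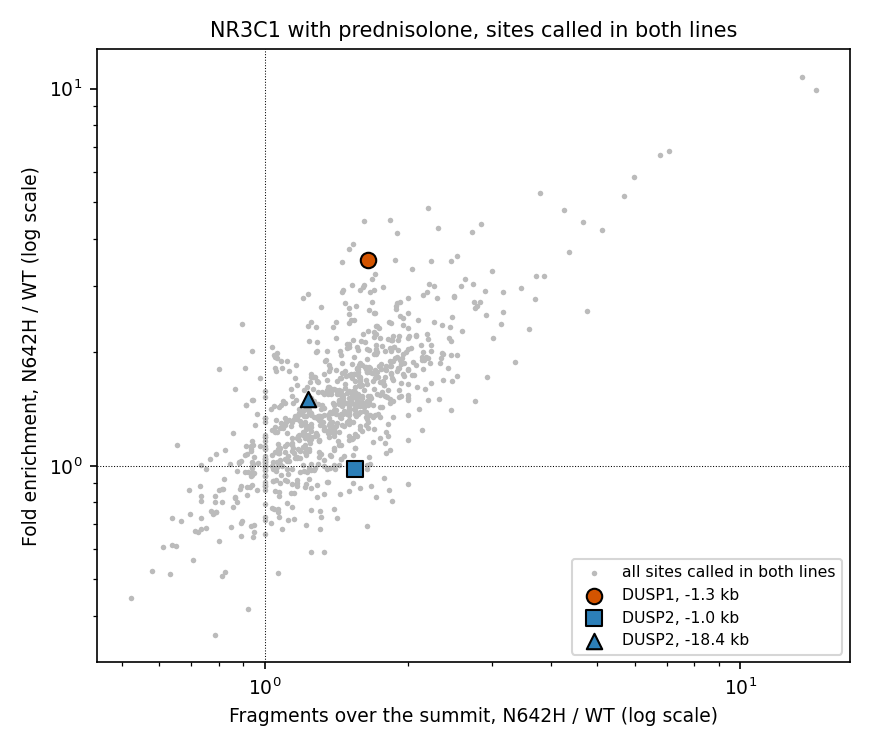
Each point is an NR3C1 site called in both lines with prednisolone (882 pairs); the x axis is the N642H over WT ratio of fragments over the summit and the y axis that of fold enrichment, both on log scales. The DUSP1 site has a fold ratio of 3.52 at a fragment ratio of 1.65, the distal DUSP2 site 1.5 at 1.23 and the proximal DUSP2 site 0.979 at 1.55.

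The other NR3C1 regions were called in the N642H line only. DUSP6 encodes a cytoplasmic phosphatase specific for ERK (gene ID 1848, chromosome 12, 89347235 to 89352501, minus strand), and its region at 89352647 to 89352804 had its summit 193 bp upstream of the start site, with fold 9.85 and 18 fragments (10.7 to 28.4). The DUSP6 summits also lay in the span of the readthrough gene POC1B-DUSP6. It was the only NR3C1 region over a promoter window of the 8 genes. Such windows were covered for 1.15% of the genes with a RefSeq promoter window in the N642H line and for 0.212% in the WT line, where none of the 8 was covered. These 27305 genes include non-coding ones such as LOC105377730, unlike the 19866 protein-coding genes of the other shares. DUSP10 encodes a phosphatase that prefers JNK and p38 (gene ID 11221, chromosome 1, 221701424 to 221742089, minus strand), and it carried 3 NR3C1 regions inside the gene. They lay 28765, 32823 and 33876 bp downstream of the outermost start site, with folds of 7.19, 5.34 and 10.6 and with 20, 14 and 24 fragments. SPRED2, whose protein recruits the RAS inhibitor neurofibromin to the membrane, had 1 region inside the gene (65416962 to 65417252 on chromosome 2, fold 9.96, 20 fragments, 12.2 to 30.9), 15529 bp downstream of the outermost start site (gene ID 200734, 65307175 to 65432599, minus strand). Exons were not analysed here, so an intragenic region is not placed in an exon or an intron.

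Of the 8 N642H-line NR3C1 regions, 3 overlapped a WT-line region (37.5%, 8.52 to 75.5), beside 30.7% of the whole N642H list. All 3 WT-line regions overlapped an N642H-line region, beside 89.9% of the WT list. Both shares lay near those of their lists. The 5 regions called in the N642H line only held 14 to 24 fragments, and the fewest over a called summit of the WT list were 8. These counts were not scaled between libraries. At sites called in both lines the N642H over WT ratio had a median of 1.41 for fragments and 1.06 for local background. What lies behind the fragment ratio was not tested. How near the 5 sites of the N642H line came to a call in the WT line was not tested either. When the N642H list was shortened to its 446 strongest regions, 2 genes and 2 regions were left in it, and these were DUSP1 and DUSP2. This is the length of the shortest of the 6 lists, whereas the WT NR3C1 list held 995 regions. The strongest regions called in the N642H line only ranked 858 of 2888 at DUSP10, 1068 at SPRED2 and 1153 at DUSP6.

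**Figure D3:**
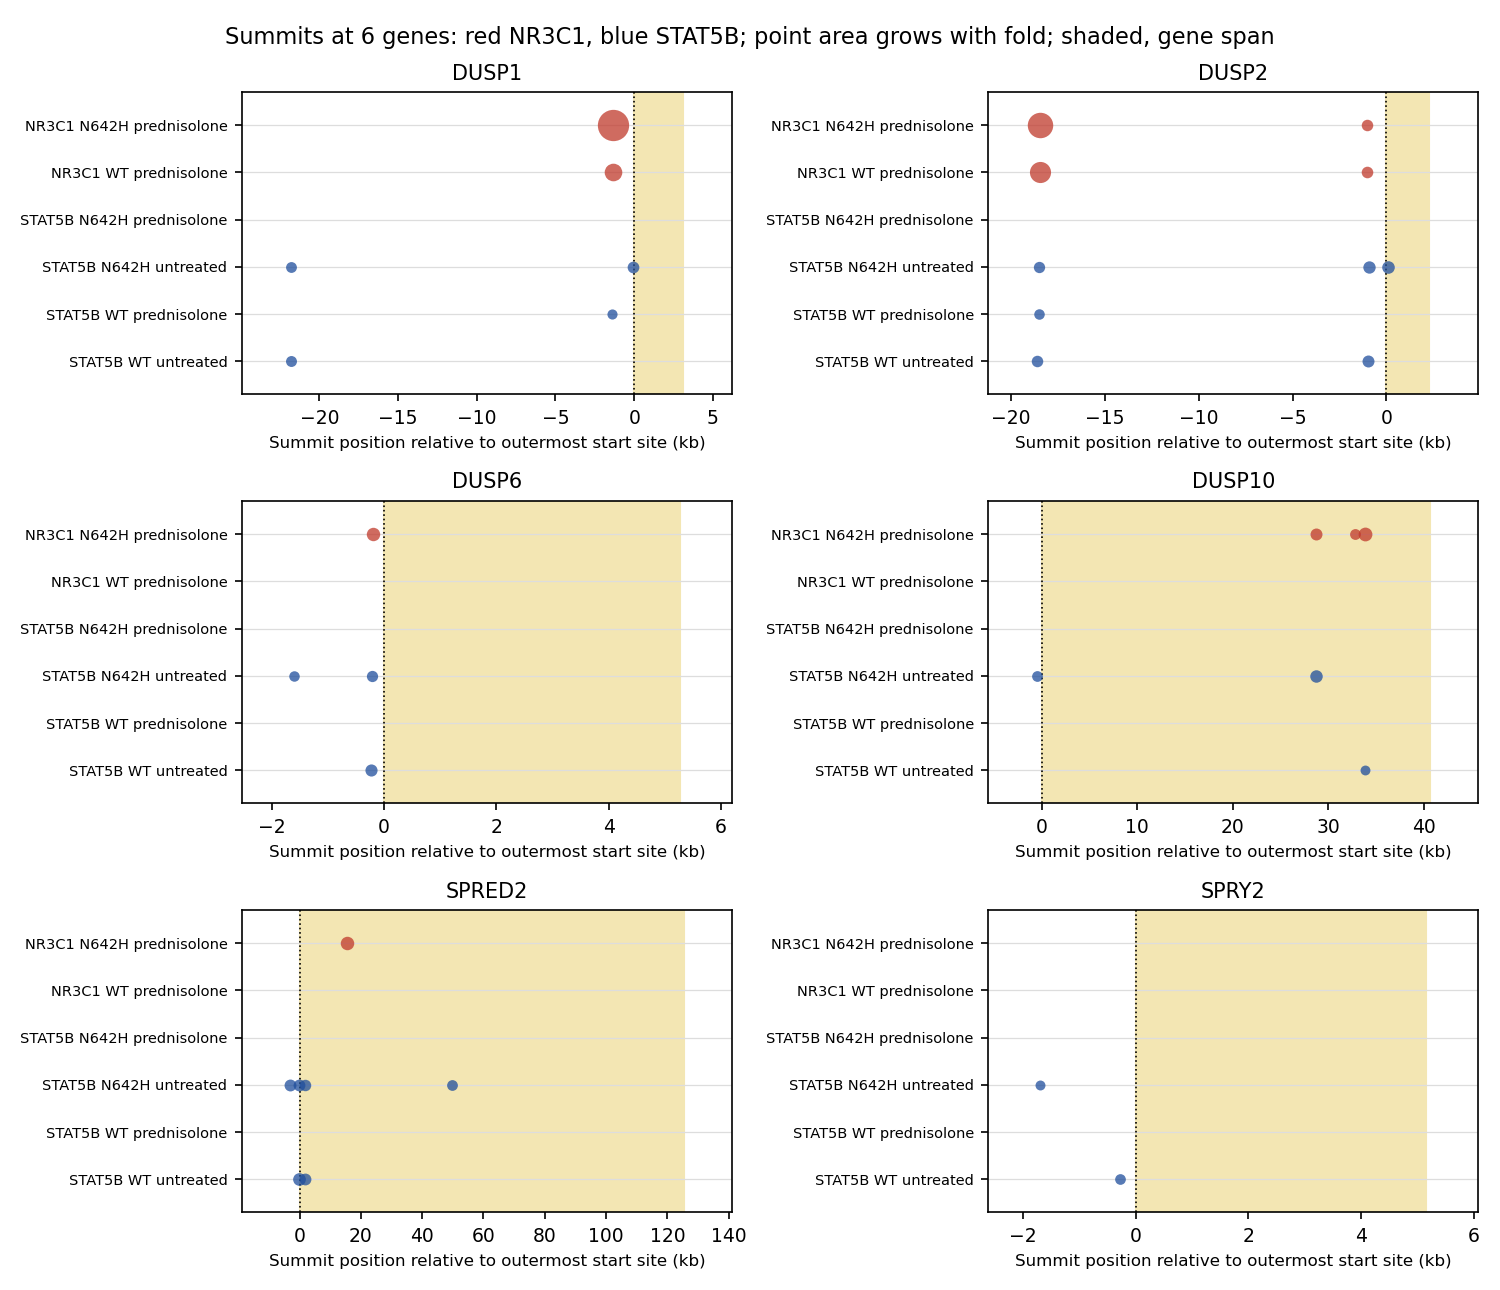
Summit positions relative to the outermost start site of 6 genes, in kb; each row is a library, red points are NR3C1 and blue points STAT5B, point area grows with fold, and the shaded band is the gene span. NR3C1 points at DUSP1 and DUSP2 lie upstream of the gene in both lines, while those at DUSP10 and SPRED2 lie inside it and occur in the N642H line only.

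STAT5B in untreated cells was found at the same 6 genes in both lines, in regions of about the median fold of their lists. DUSP1, DUSP2, DUSP6, DUSP10, SPRED2 and SPRY2 had a region in each line (6 of 10, 26.2 to 87.8%), against 39.5% of all genes in the N642H line and 23.2% in the WT line (41.7% and 24.3% in the size range). In both lines at once 6 of the 10 genes were linked, against 19.4% of all genes. None was linked in the N642H line alone, against 20.0%, or in the WT line alone, against 3.75%. With each list shortened to its 446 strongest regions, 0 of these genes were left in the N642H line and 1 in the WT line. In the full lists the N642H line had 14 regions at these genes and the WT line had 8. Their median fold was 6.22 in the N642H line, where the median of the whole list was 6.13, and 6.68 in the WT line, where it was 6.25. The regions held 11 to 24 fragments in the N642H line, with 1 region at DUSP6 left unsolved, and 9 to 19 in the WT line. Within 1 kb of a start site of their own gene lay 6 of 14 regions in the N642H line and 4 of 8 in the WT line. Of the regions on chromosomes that have start sites in the promoter set, 57.9% of 4421 in the N642H list and 59.1% of 2207 in the WT list lay within 1 kb of a start site of any gene of the promoter set.

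Of the N642H-line regions 6 of 14 overlapped a WT-line region (42.9%, 17.7 to 71.1), beside 29.8% of the list, and 6 of 8 WT-line regions overlapped an N642H-line region (75.0%, 34.9 to 96.8), beside 61.4%. The 6 shared sites were at DUSP1, DUSP2 (2 sites), DUSP6 and SPRED2 (2 sites). At these sites the fragments in the N642H and WT lines were 24 and 15 at DUSP1, 17 and 12 at the proximal and 19 and 19 at the distal DUSP2 site, and 16 and 13 at DUSP6. At SPRED2 they were 17 and 15 at the promoter and 17 and 12 within the gene. The Poisson intervals overlapped at all 6 sites. The ratios of 1.00 to 1.60 stood beside a median of 1.44 over 1346 pairs called in both lines. The ratio at the distal DUSP2 site, 1.00, was above 6.02% of the pairs.

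**Figure D4:**
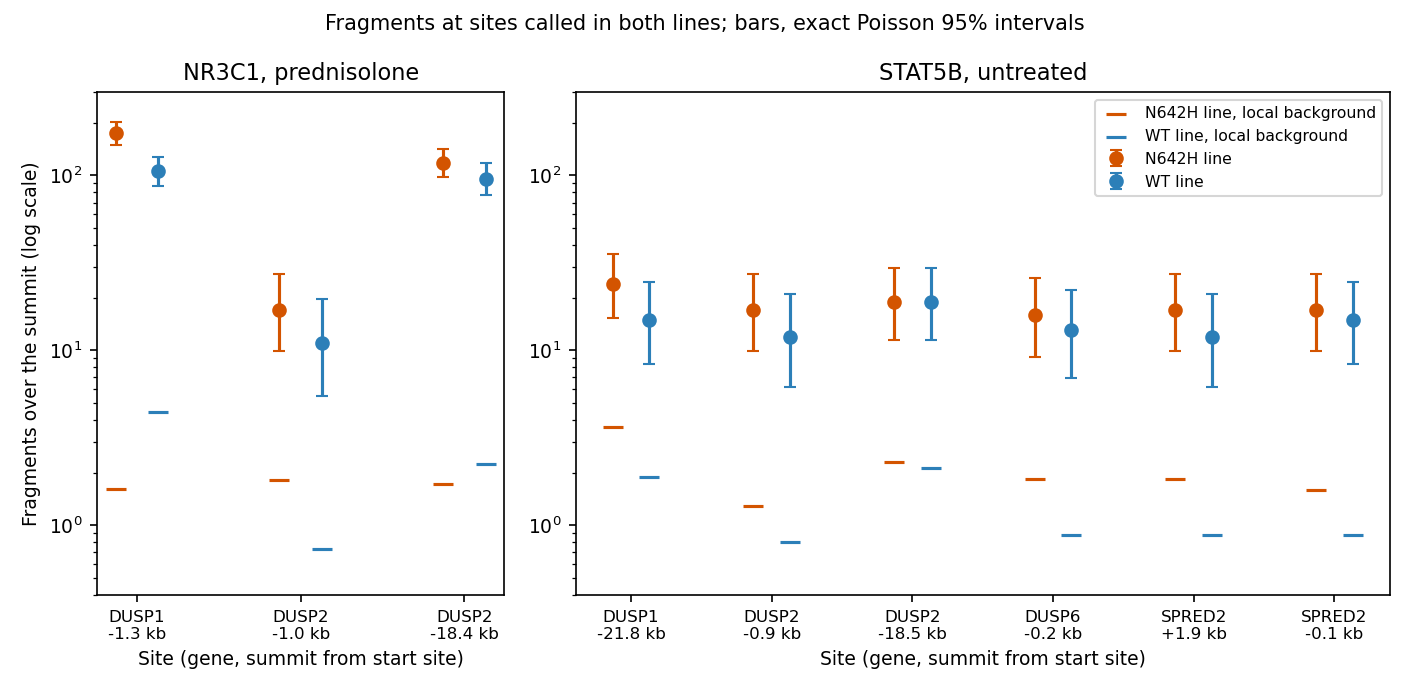
Fragments over the summit (points, with exact Poisson 95% intervals) and local background (dashes) on a log scale, at the 3 NR3C1 sites (prednisolone) and the 6 STAT5B sites (untreated) called in both lines. NR3C1 fragments at DUSP1 are 175 in the N642H line and 106 in the WT line with intervals apart. The intervals of the 2 lines overlap at the DUSP2 NR3C1 sites and at all 6 STAT5B sites, which hold at most 24 fragments. Counts are not scaled between libraries. Over all sites called in both lines the N642H over WT ratio had a median of 1.41 for NR3C1 and 1.44 for STAT5B.

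The regions over the start sites were not all called in both lines, which was not tested. At the DUSP1 start site a STAT5B region was called in the N642H line only (172770873 to 172771312, summit 52 bp upstream, fold 6.74, 15 fragments, 8.40 to 24.7). The gene's other untreated region lay 21827 bp upstream in the N642H line and 21809 bp upstream in the WT line, with fold 5.35 and 5.52. DUSP2 had a region over its start in the N642H line only (96145229 to 96145609, summit 97 bp into the gene, fold 8.30, the highest fold of the 14, 18 fragments). Both lines had the site about 1 kb upstream, with fold 7.87 in the N642H line and 7.21 in the WT line. DUSP6 had a promoter region in both lines, with its summit 216 bp upstream in the N642H line (fold 6.00) and 232 bp upstream in the WT line (fold 7.46). SPRED2 had 4 regions in the N642H line and 2 in the WT line. Those at its start site had summits 7 bp apart, with fold 6.92 in the N642H line and 8.53 in the WT line, the highest fold of the 8.

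DUSP10 and SPRY2 had STAT5B regions in both lines, but at different sites. At DUSP10 the N642H line had a region inside the gene (221713274 to 221713465, fold 8.10, 21 fragments) and one 542 bp upstream of the start (fold 5.25, 11 fragments). The WT line had one inside the gene (221708175 to 221708285, fold 3.90, 14 fragments). SPRY2, an inhibitor of receptor tyrosine kinase signalling (gene ID 10253, chromosome 13, 80335976 to 80341126, minus strand), had a region 1686 bp upstream in the N642H line (fold 4.00, 14 fragments). In the WT line its region lay 273 bp upstream (fold 5.13, 9 fragments). The SPRY2 region of the N642H line ranked 4313 of 4542 and that of the WT line 1983 of 2267, and the DUSP10 region of the WT line ranked 2161 of 2267. STAT5B covered a promoter window of 4 of 8 genes in the N642H line (DUSP1, DUSP2, DUSP6 and SPRED2), against 9.31% of the genes with a promoter window, and of 2 of 8 in the WT line (DUSP6 and SPRED2), against 4.43%. The 27305 genes with a window include non-coding genes, whereas the 8 are protein-coding, and a share over protein-coding genes alone was not taken.

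With prednisolone STAT5B regions were called at DUSP1 and DUSP2 in the WT line and at none of the 10 genes in the N642H line. The N642H count of 0 of 10, which allows a share of up to 30.0% by the same 3 counts, stood against 4.77% of all genes (5.14% in the size range). In the WT line 2 of 10 had one (DUSP1 and DUSP2, 2.52 to 55.6%), against 9.60% (10.2% in the size range). Of the 14 untreated regions of the N642H line 0 were called again, which allows a share of up to 21.4% (3 counts of the total), and 6.87% of the whole list were called again. Of the 8 untreated regions of the WT line 1 was called again (12.5%, 0.316 to 52.7), beside 19.9% of the list. In the other direction 1 of the 2 prednisolone regions of the WT line was called without it, beside 59.3% of that list, and the prednisolone list of the N642H line had no region here to compare, beside 70.4%. No promoter window of the 8 genes was covered, against 0.751% of genes with a window, coding or not, in the N642H line and 1.75% in the WT line. Neither WT-line region overlapped an N642H-line region, beside 23.8% of the WT list, and 41.0% of the N642H list overlapped a WT-line region. These counts are near their backgrounds and are not results about these genes. At the 310 sites called in both N642H libraries and solved in both, the fragment ratio of prednisolone to untreated cells had a median of 0.433, while over 454 such sites in the WT line it was 1.07. Fragment totals are unknown, so depth was not counted directly. The genome-wide background in the N642H line was 0.310 fragments with prednisolone and 0.977 without. In the WT line it was 0.620 with prednisolone and 0.640 without. At the sites above the prednisolone over untreated ratio of local background had a median of 0.301 in the N642H line and 0.969 in the WT line. The part of these ratios and backgrounds in the loss of calls at the 10 genes was not tested.

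In WT-line cells given prednisolone, both STAT5B regions at these genes lay on NR3C1 regions of the same cells, beside 18.4% of that list. The first was at DUSP1, at 172772447 to 172772656, with its summit 1402 bp upstream of the start site and 47 bp from the NR3C1 summit. It had fold 4.28, −log10 q 3.11 and 19 fragments (11.4 to 29.7), and no untreated STAT5B region lay there in either line. The second was the distal DUSP2 site, at 96163818 to 96164097, with fold 4.86, −log10 q 3.0 and 16 fragments (9.15 to 26.0), 61 bp from the NR3C1 summit. STAT5B was also called there without prednisolone, with 19 fragments (11.4 to 29.7) in the WT line and 19 in the N642H line. The fragments under STAT5B were 0.179 and 0.167 of those under NR3C1 at DUSP1 and DUSP2, where the median over 141 such sites was 0.824. They ranked 708 and 722 of 766 in their list, and neither passed a −log10 q of 5 or a fold of 5. In the other direction 2 of 3 NR3C1 regions of the WT line were covered by STAT5B, beside 14.1% of the NR3C1 list. In the N642H line 0 of 8 were covered, beside 7.76%, and the share of STAT5B regions at NR3C1 in its whole list was 53.6%.

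Untreated STAT5B and prednisolone NR3C1 regions met at 4 sites of the N642H line. These were the proximal and distal DUSP2 sites, the DUSP6 promoter and the DUSP10 site at 221713246 to 221713465, or 4 of 14 STAT5B regions (28.6%, 8.39 to 58.1), beside 17.7% of the list, and 4 of 8 NR3C1 regions, beside 27.8%. The summits of the 2 factors were 95 and 33 bp apart at DUSP2, 23 bp at DUSP6 and 35 bp at DUSP10. In the WT line 2 of 8 STAT5B regions met an NR3C1 region (3.19 to 65.1%), beside 7.19% of the list, and 2 of 3 NR3C1 regions met a STAT5B region, beside 16.3%. Both were at DUSP2. The untreated WT-line regions at DUSP6 and in DUSP10 lay on NR3C1 regions that were called with prednisolone in the N642H line only, and 4 of 8 WT-line STAT5B regions in all overlapped that list, beside 19.5%. Counted over all lists, 6 of the 19 sites carried both factors, 2 carried NR3C1 alone and 11 STAT5B alone. Of the 19 sites 10 appeared in 1 list only. The sites were built from 24 STAT5B and 11 NR3C1 regions. Sites were not counted in this way over the whole lists, so these counts are not results about these genes.

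**Figure D5:**
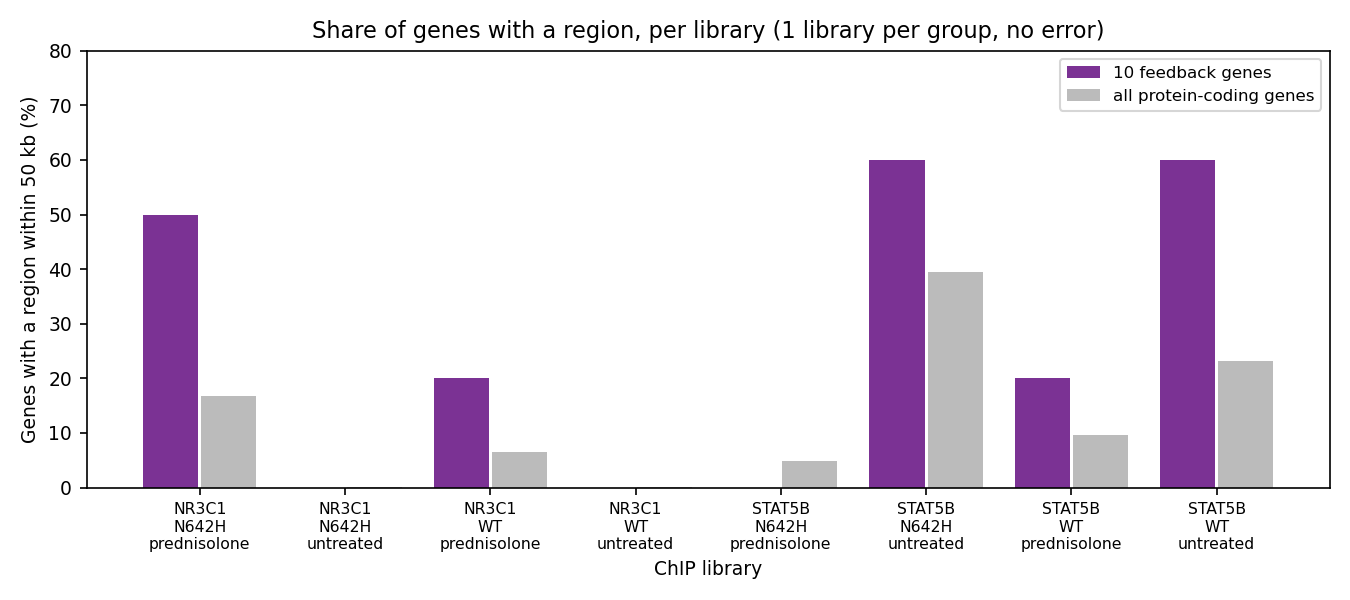
Share of the 10 feedback genes and of all protein-coding genes with a region whose summit lies in the gene or within 50 kb, in each of the 8 libraries (1 library per group, no error bars). For NR3C1 with prednisolone 5 and 2 of 10 genes (N642H and WT line) stand beside 16.8 and 6.49% of all genes, and for untreated STAT5B 6 of 10 in each line beside 39.5 and 23.2%.

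The remaining 4 genes had no region in any list within 50 kb. They were DUSP4 and DUSP5, which encode nuclear phosphatases of ERK, SPRED1, the close relative of SPRED2, and SPRY1. Inside the distance limit of 50 kb, the farthest region lay 21827 bp from its gene, at DUSP1. Just outside it, an untreated STAT5B region of the N642H line lay 54828 bp from DUSP1 (fold 5.29). Untreated STAT5B regions also lay 55812 bp (N642H line, fold 6.62) and 56181 bp (WT line, fold 5.73) from DUSP5.

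Other genes of the pathway were counted in the same way. Of 62 genes in 6 lists 12 had an NR3C1 region with prednisolone in the N642H line (19.4%, against 16.8% of all genes) and 6 in the WT line (9.68%, against 6.49%). A STAT5B region without it was found at 30 in the N642H line (48.4%, against 39.5%) and 15 in the WT line (24.2%, against 23.2%). With prednisolone 6 had a STAT5B region in the N642H line (9.68%, against 4.77%) and 5 in the WT line (8.06%, against 9.60%). Most of these shares lie near those of all genes and are not results about the pathway. Among 9 other dual-specificity phosphatase genes, not all of them MAP kinase phosphatases, DUSP22 alone had an NR3C1 region in the N642H line (fold 6.53). This was 11.1% against 16.8% of all genes. In the WT line 0 of the 9 had one, against 6.49%. Untreated STAT5B regions were found at 0 of the 9 in either line, against 39.5% of all genes in the N642H line and 23.2% in the WT line. With prednisolone STAT5B was also found at none of the 9, against 4.77% and 9.60%. SPRY4, the only linked gene of the 3 other Sprouty and SPRED genes, had an NR3C1 region about 32 kb from the gene in both lines (fold 11.9 in the N642H line and 8.81 in the WT line) and an untreated STAT5B region at the same site in the N642H line (fold 5.14). NR3C1 regions lay inside RASA1, a RAS GTPase-activating protein gene (fold 28.8 in the N642H line and 15.2 in the WT line). Of 9 such genes 3 had an NR3C1 region in the N642H line (33.3%) and 2 in the WT line (22.2%). Others lay inside MAP3K5, which encodes a kinase upstream of JNK and p38 (28.6 in the N642H line and 6.45 in the WT line). MAPK10, a JNK gene, also held one (19.7 in the N642H line and 8.09 in the WT line). These were 2 of 13 p38 and JNK cascade genes in each line (15.4%, against 16.8% of all genes in the N642H line and 6.49% in the WT line). Of 13 ERK-induced genes 8 had an untreated STAT5B region in the N642H line (61.5%, against 39.5% of all genes) and 6 in the WT line (46.2%, against 23.2%), among them FOS, at 295 bp from the gene in the N642H line (fold 10.1) and 272 bp in the WT line (fold 7.35). FOS also had an NR3C1 region 463 bp from the gene in the N642H line (fold 21.5). In the WT line its strongest NR3C1 region lay 29205 bp from the gene (fold 8.38). Of the 15 genes from RAS to ERK 11 had an untreated STAT5B region in the N642H line (73.3%, against 39.5% of all genes). In the WT line 4 had one (26.7%, against 23.2%), a contrast that was not tested. An NR3C1 region with prednisolone was found at 1 of these 15 in the N642H line (6.67%) and 0 in the WT line. Untreated STAT5B was found at 5 of 13 p38 and JNK cascade genes in the N642H line (38.5%) and 3 in the WT line (23.1%). At 9 RAS GTPase-activating protein genes these counts were 5 (55.6%) and 2 (22.2%). Among the genes from RAS to ERK, SHC1, an adaptor upstream of RAS, had the strongest untreated STAT5B region. Its site lay 25154 bp from the gene in the N642H line (fold 11.9) and 25125 bp in the WT line (fold 17.6). Nearer genes were not looked up for the sites of these pathway genes, so this site is not assigned to SHC1.

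Genes with a similar pattern over the 6 lists with more than 50 regions were sought by the percentile of each gene's strongest region within its list, with 0 where there was none. The 2 nearest genes to DUSP1 were ALDH7A1 and TRERF1, at a mean absolute difference of 4.54 and 4.71 percentile points over 6 lists. To DUSP2 they were SLC9A9 (3.35) and PTPRN2 (4.23). To DUSP6 they were ZSCAN2 (0.907) and MON2 (2.61), to DUSP10 SLC25A33 (1.40) and KRI1 (1.49), and to SPRED2 TYW1B (2.67) and AKAP10 (2.70). The 4 genes nearest to DUSP1 and DUSP2 had no STAT5B region with prednisolone in either line, where both DUSP genes had one in the WT line.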

How the data were processed

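ChIP-seq regions for NR3C1 and STAT5B came from 8 libraries of SUPT-1 cells, and 4 input libraries were not analysed here. BWA, MACS2 and deepTools are named, with build hg38, in the submitters' processing notes; their versions are not given in the sources used here. For each region the authors deposited a score, a fold (a ratio of ChIP signal to its local background), a −log10 p and a −log10 q, and from the values the score is 10 times −log10 q, cut to a whole number. The deposited lists start at a −log10 q of 2, and nothing says that libraries were pooled. No p-value was recomputed.

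Only regions on assembled chromosomes entered the counts. Genes and promoter windows came from RefSeq tables of GRCh38.p14, leaving out genes on other sequences. Lists were compared by an overlap of at least 1 bp. Fragments over each summit were solved from the fold (pseudocount 1) and the Poisson −log10 p, with a tolerance of 0.004 for whole fragments, and tested on simulated data; linking and overlap were tested in the same way. Fragment totals per library are unknown. Python 3.11.15, numpy, pandas and scipy were used. With 1 library per group no test was run. Intervals for shares are exact Clopper-Pearson 95% intervals, the limit beside a count of 0 is 3 counts of the total, and both cover counting error only. Named genes were all 10 members, up to 3 genes per antibody of each pathway list by −log10 q, and the 2 genes most alike to each member linked in at least 3 lists. The motifs were not among the choices fixed at the start. The members and lists were chosen with earlier results of these data known. Alternatives were the distance limit, stricter thresholds, equal list length, nearest gene and other overlap rules.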

Additional observations from a re-analysis of the deposited data

How the results depend on the processing

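Of 167 values recomputed under the alternatives for 27 counts, 146 stayed within 1.5 times the count given and 21 did not. With every long list shortened to the 446 strongest regions, the NR3C1 list of prednisolone-treated N642H cells kept 2 linked genes and 2 regions in place of 5 and 8, and untreated STAT5B kept 0 genes and 0 regions in the N642H line and 1 gene with 1 region in the WT line, so most STAT5B counts at these genes rest on weaker regions. The 2 genes and 2 regions of STAT5B in the WT line with prednisolone fell to 0 with equal list length, with a −log10 q of at least 5 and with a fold of at least 5, and the counts at NR3C1 and shared with untreated cells fell to 0 with both thresholds. The overlap of untreated STAT5B with NR3C1 in the WT line fell to 1 with a −log10 q of at least 5. Within 100 kb, STAT5B in the N642H line with prednisolone gained 1 gene and 1 region. Its counts shared with the WT line and with untreated cells became 1. All of these rest on a site about 97 kb from SPRED1, for which nearer genes were not looked up. A limit of 20 kb, nearest gene only, summits within 500 bp and a stricter overlap rule moved no count by more than 1.5 times. The cause of these shifts is the construction of the alternatives (fewer regions, or a wider distance). No paired analysis was possible because each group held 1 library. The fewest fragments over a called summit were 6 to 9 per list, and a missing call does not show that binding is absent.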

Other observations

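SPRED1 had no region within 50 kb, but STAT5B was called at a site about 97 kb from the gene in 3 libraries. Its fold was 6.95 in the N642H line with prednisolone (9 fragments), 4.86 in the WT line with prednisolone (16 fragments) and 4.30 in the untreated N642H line (23 fragments). It was the only STAT5B site within 100 kb of the 10 genes called in the N642H line with prednisolone, and it lies outside the rule that defined the regions. Whether another gene lies nearer to this site was not looked up, so the site is not assigned to SPRED1.

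As a check of the cell label, loci of 11 T-lineage genes such as CD3D, CD3E, CD5 and RAG1 were looked up. With prednisolone 10 of 11 had an NR3C1 region within 50 kb in the N642H line and 7 of 11 in the WT line, against 16.8% and 6.49% of all genes. Of 4 B-lineage genes these numbers were 1 and 0, of 4 myeloid genes 1 and 0, of 2 erythroid genes 0 and 0, and of 3 non-blood genes 0 and 1. Untreated STAT5B regions were found at 10 of 11 T-lineage genes in the N642H line and 6 of 11 in the WT line, against 39.5% and 23.2% of all genes. With prednisolone STAT5B regions were found at 0 of 11 in the N642H line and 5 of 11 in the WT line, against 4.77% and 9.60%, while of the 4 B-lineage genes 1 (CD79A) had one in the N642H line and 0 in the WT line, and of the myeloid, erythroid and non-blood genes 0 in either line. At the B-lineage genes the untreated counts were 2 and 1, at the myeloid genes 2 and 1, at the erythroid genes 0 and 0, and at the non-blood genes 1 and 1. CD3D, CD3E and CD3G lie next to each other and can share regions. Peak lists hold no expression, so a marker's level was not measured.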
